A study of Mus musculus with 48 samples.

Results

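The 32 genes described here are the Hox genes, the Meis genes and the Pbx genes listed in a table of read counts for sorted mouse endothelial cells. They were chosen by symbol alone: every row of the table named Hox with a cluster letter from a to d and a paralog number, or named Meis or Pbx with a number. They make up 32 of the 15569 genes of the table and comprise 9 Hoxa, 8 Hoxb, 3 Hoxc, 5 Hoxd, 3 Meis and 4 Pbx genes. Other Hox genes are not analysed here.

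All mice were Abcg2CreERT;ROSATdTomato, so that cells expressing the drug efflux transporter Abcg2 switch on the red TdTomato reporter once tamoxifen activates the Cre recombinase. Each animal was given 50 mg/kg tamoxifen into the abdomen 24 h before tissue was taken. Endothelial cells were sorted from collagenase-digested tissue by staining for the endothelial protein CD31 and the blood cell proteins CD45 and Ter119, into a TdTomato+ and a TdTomato- fraction. The 5 combinations of organ and age were muscle at 6 weeks (6W), muscle at postnatal day 6 (P6), lung at postnatal day 1 (P1), heart at 6W and heart at P1. With P1 heart pair 1 left out, because its TdTomato+ library failed the submitters' quality control, each fraction had 4 libraries of 6W muscle, 5 of P6 muscle, 5 of P1 lung, 5 of 6W heart and 4 of P1 heart. Libraries of the same organ, age and number were matched, which gave 23 pairs and 46 libraries. The reporter marks only cells in which Abcg2 drives the recombinase, and its absence does not show that a cell never made Abcg2. Whether each pair came from 1 mouse or from several pooled mice is not in the labels, and a p-value here measures only how far these libraries spread, which may in part be technical.

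Hox genes encode homeodomain transcription factors that lie in clusters, and during development the order of the genes along a cluster matches the order of their expression along the body axis, with low paralog numbers towards the head and high numbers towards the tail and the ends of the limbs. Pbx and Meis proteins belong to the TALE class of homeodomain factors and bind DNA together with Hox proteins, Pbx as the common partner and Meis as an additional partner that also binds Pbx. Differentiated cells, endothelial cells among them, often keep a Hox pattern that reflects where in the body they came from, and Meis1 is also known for roles in blood, lymphatic vessel and heart development.

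Library totals ran from 17512843 to 27622937 counts, and the RNA integrity score of the run sheets, which falls as RNA degrades, ran from 3.6 to 10. All 10 endothelial identity markers, among them Pecam1, Cdh5 and Erg, averaged at least 1 CPM (counts per 1000000 counts of a library) in each of the 10 groups, and their summed level was 7990 to 20984 CPM per library. The heart libraries of 6W pairs 5 and 6 carry the word muscle in 1 label field and heart in the title and source name. They were kept as heart, and their Hox levels are given with the others. A count of 0 in a library allows a level of up to 0.0987 to 0.184 CPM (3 counts), which covers counting error only.

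Promoter sequences are shown for 4 genes whose levels differ most clearly between organs or that hold a matching motif: Hoxa5, which was high in lung, Hoxa9 and Hoxb8, which were read in muscle and scarcely in heart, and Hoxa2, the member with the most motif matches. Each runs 5′ to 3′ on the gene's strand from 250 bases before to 50 bases after the RefSeq start (GRCm38.p6). Capitals mark the first transcribed base and any match to a Hox and Pbx motif (TGATNNAT) or a Meis motif (TGACAG), searched on both strands. Hoxa2 lies at chr6:52164782-52165081 on the minus strand, Hoxa5 at chr6:52204538-52204837 on the minus strand, Hoxa9 at chr6:52227321-52227620 on the minus strand and Hoxb8 at chr11:96281655-96281954 on the plus strand.
Hoxa2: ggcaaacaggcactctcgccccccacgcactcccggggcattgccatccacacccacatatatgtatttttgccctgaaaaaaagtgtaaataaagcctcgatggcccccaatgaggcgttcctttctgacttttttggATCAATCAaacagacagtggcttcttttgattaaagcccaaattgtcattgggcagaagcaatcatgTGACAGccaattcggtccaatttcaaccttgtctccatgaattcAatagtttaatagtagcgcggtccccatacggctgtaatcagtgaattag
Hoxa5: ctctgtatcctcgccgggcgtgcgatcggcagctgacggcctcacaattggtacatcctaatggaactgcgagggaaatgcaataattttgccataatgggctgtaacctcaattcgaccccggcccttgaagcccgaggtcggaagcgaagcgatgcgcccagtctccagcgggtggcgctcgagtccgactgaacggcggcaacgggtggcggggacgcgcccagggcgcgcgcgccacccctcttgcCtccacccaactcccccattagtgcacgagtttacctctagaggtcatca
Hoxa9: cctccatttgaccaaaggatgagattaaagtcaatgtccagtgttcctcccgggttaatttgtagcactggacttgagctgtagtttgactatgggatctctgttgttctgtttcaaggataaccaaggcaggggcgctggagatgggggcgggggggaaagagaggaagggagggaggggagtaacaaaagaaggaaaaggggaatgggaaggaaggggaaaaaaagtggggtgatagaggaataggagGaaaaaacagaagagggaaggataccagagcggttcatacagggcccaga
Hoxb8: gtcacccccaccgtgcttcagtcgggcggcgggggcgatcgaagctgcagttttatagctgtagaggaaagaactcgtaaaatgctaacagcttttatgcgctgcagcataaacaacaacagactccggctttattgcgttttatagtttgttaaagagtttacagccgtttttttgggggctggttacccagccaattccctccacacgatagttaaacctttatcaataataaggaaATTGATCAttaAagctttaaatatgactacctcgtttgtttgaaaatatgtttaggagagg
RefSeq promoters were matched for 19 of the 32 members. The Hox and Pbx motif was present in those of 2 members, Hoxa2 (starting 111 bases before the start) and Hoxb8 (11 bases before it), and in 8.85% of 32851 promoters. The Meis motif was present in those of Hoxa2 (44 bases before the start) and Hoxa3, and in 19.2% of all promoters. None of the printed matches overlapped another. The 4 printed promoters differed in composition: Hoxa5 held 29 CG dinucleotides in 300 bases and Hoxa9 held 4, against a median of 17 over the members' promoters and 7 over all promoters. A match is a description of these letters and does not mark a bound site.

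The clusters were read to different depths in the 3 organs. A Hox gene was counted as present where its group mean reached 1 CPM. In the TdTomato- fraction, 23 of 25 Hox genes were present in 6W muscle, 20 in P6 muscle, 12 in P1 lung, 11 in 6W heart and 11 in P1 heart. The TdTomato+ fraction gave 23, 19, 13, 11 and 12 in the same order of groups. Of the 7 genes of paralog groups 9 and 10, the most posterior ones in the table, 6 were present in 6W muscle in both fractions, while none was present in heart at either age in either fraction. P1 lung lay between them, with Hoxd9 and Hoxd10 present in the TdTomato- fraction and Hoxd9 in the TdTomato+ fraction. The highest Hoxa gene present was Hoxa10 in muscle and Hoxa7 in lung and heart. Hoxc genes were the sparsest, with no member present outside 6W muscle, where Hoxc10 averaged 1.08 CPM in TdTomato- cells.

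**Figure D1:**
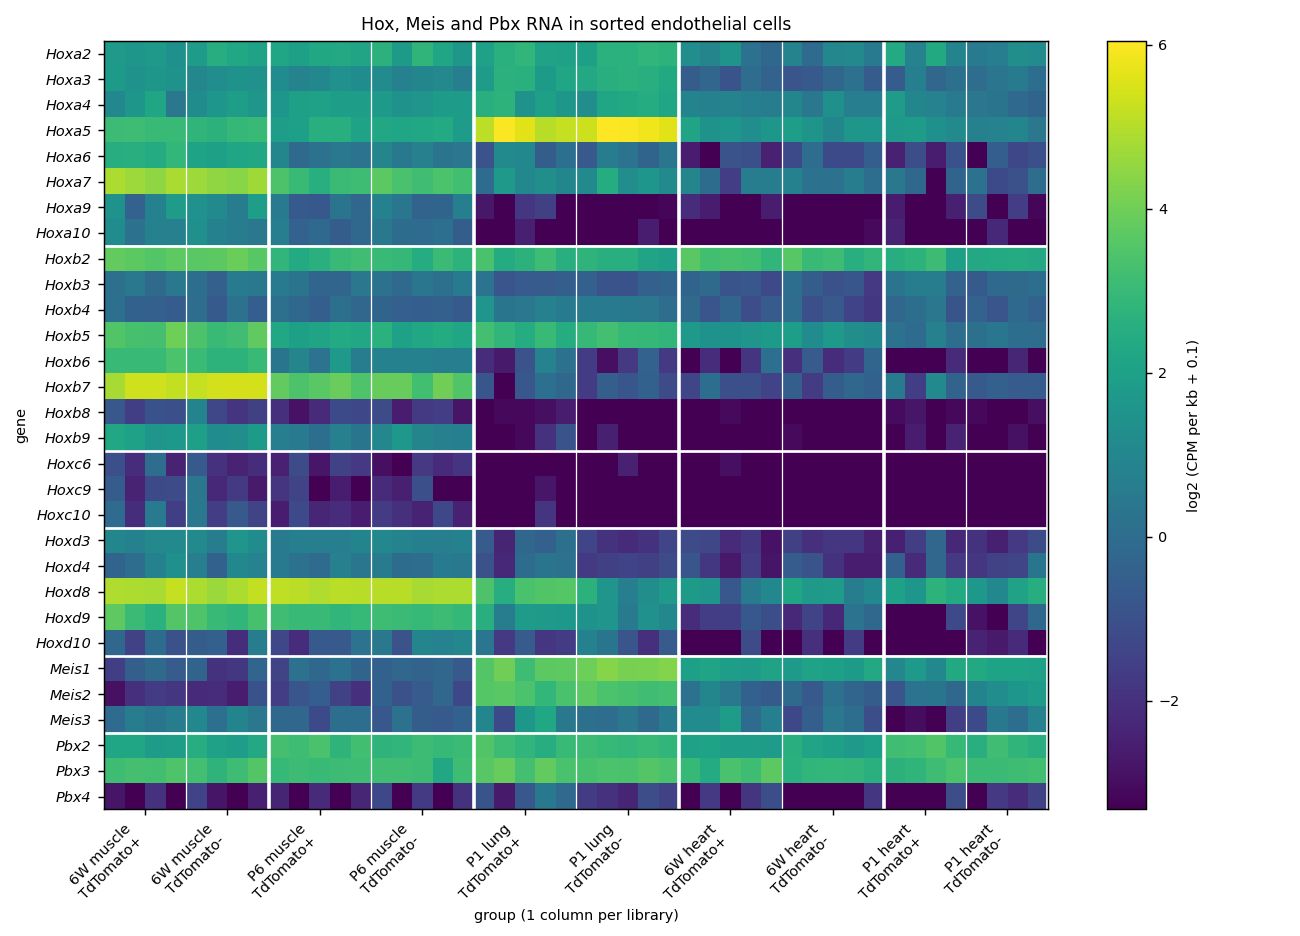
Level of 30 of the 32 members (rows, in cluster order) in each of the 46 libraries (columns, by group), as log2 of CPM per kilobase of gene length plus 0.1. Muscle columns are filled through Hoxa10, Hoxb9 and Hoxd10, and Meis1 and Meis2 are highest in the lung columns. Heart group means reach 1 CPM no further than Hoxa7 and Hoxd8, although some heart libraries hold Hoxd9 above 1 CPM.

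Levels of different genes were compared per length, as RPKM (the CPM level divided by gene length in kilobases), in the TdTomato- fraction. The summed level of the 25 Hox genes was 172.6 ± 13.15 RPKM in 6W muscle (SD, n = 4), 103.7 ± 8.61 in P6 muscle (n = 5), 98.1 ± 12.6 in P1 lung (n = 5), 26.2 ± 4.62 in 6W heart (n = 5) and 19.9 ± 2.37 in P1 heart (n = 4). The sums of P6 muscle and P1 lung overlapped, and all other neighbours in this order did not overlap. Paralogs 5 to 8 made up most of the sum in muscle and lung, with 125.6 ± 11.05 RPKM in 6W muscle and 71.1 ± 10.96 in P1 lung, whereas paralogs 1 to 4 made up more than the other classes in heart, with 14.5 ± 3.07 in 6W heart. A few genes carried each sum. Hoxb7 (41.6 ± 3.2 RPKM), Hoxd8 (30.3 ± 4.9) and Hoxa7 (23.7 ± 2.6) led in 6W muscle, Hoxa5 (55.3 ± 10) alone led in P1 lung, and Hoxb2 (8.36 ± 2.3) led in 6W heart. In bulk libraries such as these, fewer cells of a type and less RNA per cell cannot be told apart.

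The widest difference between organs at 1 age was that of 6W muscle against 6W heart. In TdTomato- cells, 23 of 29 tested members were called, 21 higher and 2 lower in muscle, where 21.9% of 14802 genes were called. In TdTomato+ cells, 18 of 30 were called, 16 higher and 2 lower, where 15% of 14966 genes were called (edgeR quasi-likelihood test, Benjamini-Hochberg adjusted p below 0.05). The median log2 difference over the tested members was 1.92 in TdTomato- cells, against 0.01 over all genes. All 8 tested genes of paralogs 5 to 8 rose in both fractions, as did 6 of 6 tested genes of paralogs 9 and 10 in TdTomato- cells and 5 of 6 in TdTomato+ cells. A filter on low counts was applied before testing. Genes scarcely read outside muscle, such as Hoxa10, Hoxb9 and Hoxc10, pass it only through muscle, where they can then be called higher. The counts of posterior genes are therefore not shares of the 7 such genes in the table. Among paralogs 1 to 4, 7 of 9 rose in TdTomato- cells and 3 of 9 in TdTomato+ cells. Of 28 members tested in both fractions, 17 were called the same way in both, and the fractions come from the same tissue samples. The muscle and heart libraries of 6W were partly sequenced in different runs. Within the second run alone, with 4 muscle pairs and heart pairs 5 and 6, 22 members were called in TdTomato- cells and 15 in TdTomato+ cells.

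The posterior genes Hoxa9, Hoxb9 and Hoxa10 were at or near 0 in the TdTomato- libraries of 6W heart. Hoxd9 was read in all of these libraries, at up to 2.26 CPM, and Hoxd10 reached 0.406 CPM. Hoxa9, which specifies positions towards the posterior trunk and limb, was at 8.22, 6.69, 4.74 and 11.8 CPM in the TdTomato- libraries of 6W muscle and at 0 in all 5 of 6W heart. Every muscle library was above every heart library, at least 49.0-fold higher on average against a floor of 3 counts per library (adjusted p = 7.01e-06, edgeR quasi-likelihood test). Hoxb9, its paralog in the Hoxb cluster, was at 10.2, 6.14, 6.35 and 8.97 CPM in muscle, against 0.0464 CPM in heart pair 1 and 0 in the other 4 heart libraries. The heart value rests on 1 read, so the ratio of 765.2 has a 95% counting interval from 136.8 to 30273 (adjusted p = 3.5e-07, edgeR quasi-likelihood test). Hoxa10, a regulator of limb and urogenital patterning, was at 7.91, 5.1, 4.5 and 3.85 CPM in muscle, against 0.0599 CPM in heart pair 6 and 0 in the others. Again the groups did not overlap and heart held 1 read, which gives a ratio of 516.7 with an interval from 92.2 to 20454 (adjusted p = 2.79e-05, edgeR quasi-likelihood test). In this fraction, these 3 posterior genes were read in all 4 muscle libraries and in at most 1 of 5 heart libraries. In TdTomato+ cells, Hoxa9 was at 8.83, 2.19, 5.35 and 11.4 CPM in 6W muscle and at 0.412, 0.216, 0, 0 and 0.226 CPM in 6W heart, so that it was read in 3 of 5 heart libraries. Hoxb9 and Hoxa10 were at 0 in all 5 TdTomato+ libraries of 6W heart.

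A pair of low genes followed the same order with more spread. Hoxb8 was at 4.67, 0.798, 0.44 and 0.633 CPM in muscle TdTomato- libraries and at 0 in all 5 heart libraries, at least 10.2-fold higher on average (adjusted p = 0.000799, edgeR quasi-likelihood test). Muscle pair 2 stood far above the other muscle libraries for Hoxb8, and without it the bound was 3.89-fold. Hoxc10, which is best known from hindlimb development, was at 2.38, 0.43, 0.977 and 0.527 CPM in muscle and at 0 in all 5 heart libraries, at least 6.74-fold higher (adjusted p = 0.00091, edgeR quasi-likelihood test). Without muscle pair 2, its bound was 4.03-fold. Hoxb7 was the strongest Hox gene of adult muscle per length (RPKM). Its level was 46.9, 54.1, 54.7 and 55.6 CPM in muscle and 0.788, 0.272, 0.745, 0.987 and 0.839 CPM in heart. Its groups lay far apart, with a log2 difference of 6.19 ± 0.29 (SE, adjusted p = 8.56e-13, edgeR quasi-likelihood test).

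Hoxa7, Hoxd8 and Hoxd9 were also among the stronger muscle genes. Hoxa7 was at 49.9, 44, 40.1 and 50.9 CPM in 6W muscle TdTomato- libraries and at 3.15, 1.99, 2.06, 2.84 and 1.86 CPM in 6W heart, with no overlap. Hoxd8 was at 64.4, 53.2, 64.8 and 79.1 CPM in muscle and 9.6, 6.8, 7.56, 3.08 and 4.31 CPM in heart, so that heart kept a clear Hoxd8 level below every muscle library. Hoxd9 was at 23.097, 16.6, 14.9 and 21 CPM in muscle and 0.232, 0.589, 0.229, 2.26 and 1.62 CPM in heart. Anterior genes differed to unequal degrees. Hoxd3 averaged 6.27 CPM in muscle and 0.476 CPM in heart and Hoxd4 averaged 3.68 CPM in muscle and 0.665 CPM in heart, both without overlap, with log2 differences of 3.70 ± 0.41 for Hoxd3 and 2.44 ± 0.59 for Hoxd4. The smallest differences among the Hox genes named here were also those of anterior genes: the log2 difference was 0.66 ± 0.19 for Hoxb2, 0.78 ± 0.27 for Hoxa4 and 1.02 ± 0.36 for Hoxb3, all called with overlapping groups, and 0.77 ± 0.39 for Hoxb4, which did not pass the test. The calls of Hoxa4 and Hoxb3 were lost when single libraries were left out, among them 6W heart pair 2 and 6W muscle pairs 4 and 5. That of Hoxb2 was lost without 6W muscle pair 4, and that of Hoxd10 without 6W muscle pair 5.

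**Figure D2:**
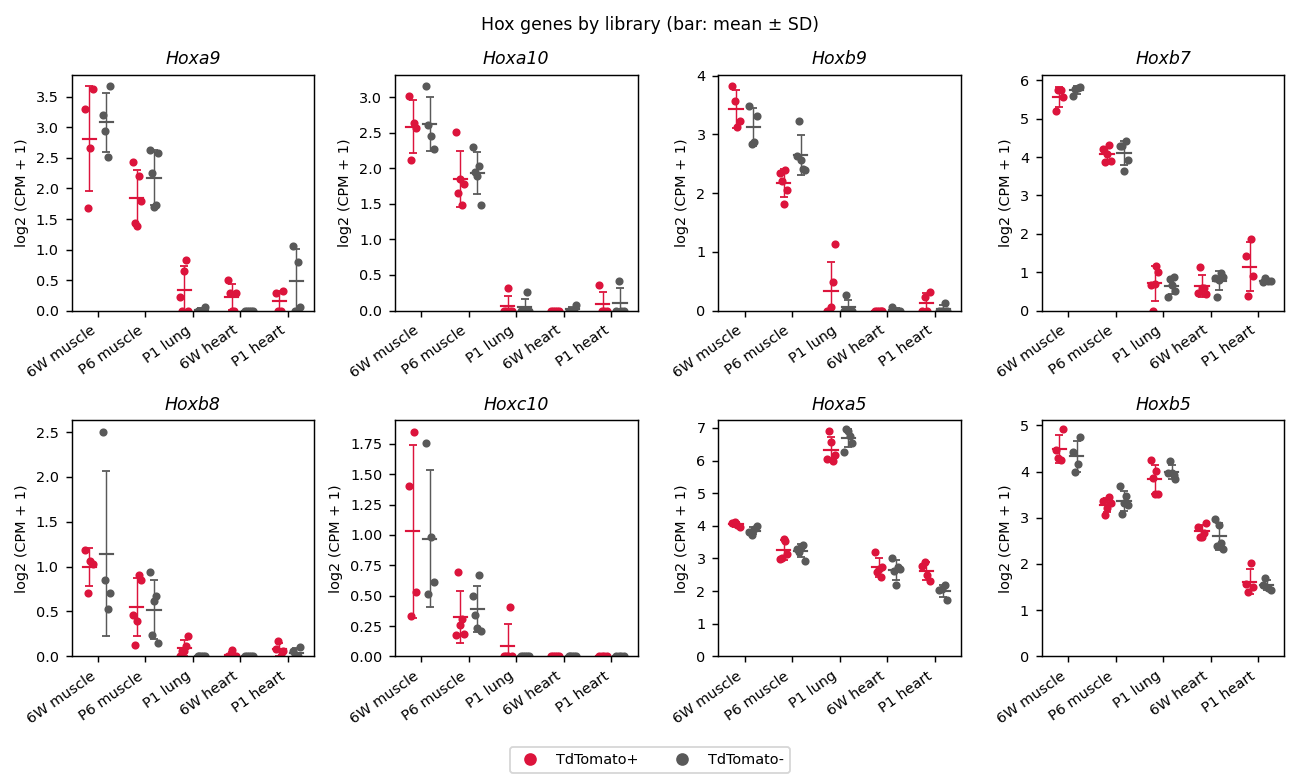
Level of 8 Hox genes in every library as log2 of CPM plus 1, by organ and age, with TdTomato+ left of TdTomato- and bars for the mean ± SD. Within each fraction, every muscle library is above every heart library for Hoxb7, Hoxa9 and Hoxb9, and Hoxa5 is highest in P1 lung.

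Markers of other cell types were read in muscle. The 12 markers of skeletal muscle and satellite cells summed to 103 to 289 CPM in 6W muscle TdTomato- libraries and 12.7 to 30.0 CPM in 6W heart, with 10 and 3 of the 12 at 1 CPM or more. The 12 fibroblast markers summed to 83.6 to 316 CPM in 6W muscle and 113.6 to 264 CPM in 6W heart, ranges that overlap. The part of such cells in the Hox levels was not tested. The muscle marker sum was 486 to 1059 CPM in P6 muscle TdTomato- libraries.

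The comparison of P1 lung with P1 heart concerned fewer genes. In TdTomato- cells, 13 of 29 tested members were called, 12 higher and 1 lower in lung, where 36.9% of all tested genes were called. In TdTomato+ cells, 15 of 30 were called, all higher in lung, where 34.5% of genes were called. The TdTomato- median over members was 0.28, against -0.02 over all genes. In TdTomato- cells 3 of 9 genes of paralogs 1 to 4 rose, 5 of 8 of paralogs 5 to 8 and 2 of 6 of paralogs 9 and 10, where Hoxa9 fell. Of 28 members tested in both fractions, 11 were called the same way in both. All P1 heart libraries belong to the first batch on the run sheet and all lung libraries to the second, so batch and organ cannot be told apart here.

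Hoxa5, which is required for normal lung development in mice, showed the largest rise. It was at 76.3, 124, 119, 107 and 93 CPM in P1 lung TdTomato- libraries and 3.08, 3.17, 3.53 and 2.3 CPM in P1 heart. All lung libraries were far above all heart libraries, with a log2 difference of 5.11 ± 0.20 (adjusted p = 4.25e-15, edgeR quasi-likelihood test). Its cluster neighbours Hoxa3 and Hoxa4 and its paralog Hoxb5 rose less. Hoxb5 was at 14.5, 17.8, 14.6, 14.2 and 13.4 CPM in lung and 1.91, 2.23, 1.79 and 1.72 CPM in heart, a log2 difference of 2.97 ± 0.22 (adjusted p = 1.69e-10, edgeR quasi-likelihood test). Hoxa3 was at 12.7, 14.8, 16.096, 14.8 and 13 CPM in lung and 2.34, 3.02, 3.35 and 2.42 CPM in heart, a log2 difference of 2.37 ± 0.24 (adjusted p = 3.68e-08, edgeR quasi-likelihood test). Neither gene's groups overlapped. The exons of Hoxa3 share 15.3% of their 2543 bases with the opposite-strand gene Hoxaas2, and no source used here gives the strand setting of the counting, so reads of that stretch cannot be assigned to 1 gene. Hoxa4 was at 3.58, 6.72, 7.66, 8.29 and 7 CPM in lung and 1.83, 1.7, 1.26 and 1.09 CPM in heart, with lung pair 1 nearest to heart.

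The posterior Hoxd genes were present in lung while posterior Hoxa genes were not. Hoxd9 was at 5.6, 5.94, 2.9, 5.36 and 4.13 CPM in P1 lung TdTomato- libraries and 0.0779, 0, 0.61 and 1.64 CPM in P1 heart, without overlap (log2 difference 3.04 ± 0.68, adjusted p = 0.00109, edgeR quasi-likelihood test). Hoxd10 was at 3.02, 2.15, 0.852, 0.263 and 1 CPM in lung and 0.156, 0.113, 0.218 and 0 CPM in heart. Lung pair 7 was close to the heart values (log2 difference 3.54 ± 1.04, adjusted p = 0.00969, edgeR quasi-likelihood test). Hoxa9 was the 1 member that fell, at 0, 0, 0, 0 and 0.0435 CPM in lung and 1.09, 0, 0.741 and 0.0391 CPM in heart, where the libraries of pairs 2 and 4 carried nearly all of the reads. The call of Hoxa6, at a mean of 0.687 CPM in lung and 0.227 CPM in heart, was lost when any of 6 single libraries was left out, those of heart pairs 2, 4 and 5 and lung pairs 5, 6 and 8.

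Lung epithelium markers were read in every lung library. The 11 markers summed to 1919 to 8111 CPM in P1 lung TdTomato- libraries and 1449 to 64003 CPM in TdTomato+ libraries, the highest sums (24652 to 64003 CPM) being those of pairs 6, 7 and 8, against 2.00 to 10.06 CPM in P1 heart. In the TdTomato- libraries of pairs 1, 5, 6, 7 and 8, Hoxa5 was at 76.3, 124, 119, 107 and 93 CPM. In the TdTomato+ libraries of the same pairs, which hold the highest epithelium sums, Hoxa5 was at 65.7, 120, 93.2, 62.3 and 70.8 CPM. Without pairs 6, 7 and 8, an alternative chosen after seeing the data, 11 members were called between lung and heart in TdTomato- cells and 11 in TdTomato+ cells. Other cell types moved with the contrast too. The 8 leukocyte markers summed to 79.6 to 505 CPM in P1 lung and 1.13 to 2.97 CPM in P1 heart TdTomato- libraries, with 8 and 1 of the 8 at 1 CPM or more and Cd3e and Itgam at 0 in that heart group. The 6 lymphatic endothelium markers summed to 1365 to 3004 CPM in lung and 187 to 310 CPM in heart, with all 6 at 1 CPM or more in both. Pairs 1 and 5 also held epithelium markers, and the part of any of these cells in the Hox and Meis levels was not tested.

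P6 muscle held the posterior pattern already, shortly after birth. Against P1 heart, 22 of 29 members were called in TdTomato- cells, 19 higher and 3 lower (32.1% of all genes called), and 21 of 30 in TdTomato+ cells, 18 higher and 3 lower (32.4%). In each fraction, all 6 tested genes of paralogs 9 and 10 rose. Of these, Hoxc10 was tested only in TdTomato- cells and Hoxc9 only in TdTomato+ cells. Here too, genes scarcely read outside muscle pass the filter on low counts only through muscle, so these are not shares of all posterior genes. All 8 tested genes of paralogs 5 to 8 rose in both fractions. The Hoxc9 call was lost with DESeq2 and when any single P1 heart library was left out. That of Hoxb8 was lost in each fraction without certain single libraries, P1 heart pairs 2 and 4 among them. Against P1 lung, 22 of 29 were called in TdTomato- cells, 14 higher and 8 lower (36.8% of all genes), and 15 of 30 in TdTomato+ cells, 8 higher and 7 lower (29.6%). Organ and 5 days of age cannot be told apart in either comparison. The comparisons with P1 lung share their batch, and those with P1 heart do not.

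Values of single genes show where muscle and lung part. Hoxb7 was at 18.5, 18.5, 11.5, 20.3 and 14.3 CPM in P6 muscle TdTomato- libraries, 0.278, 0.784, 0.596, 0.822 and 0.435 CPM in P1 lung and 0.662, 0.794, 0.697 and 0.703 CPM in P1 heart. Lung and heart overlapped for Hoxb7, and every P6 muscle library was above both. Hoxa9 was at 5.22, 3.78, 2.23, 2.31 and 4.98 CPM in P6 muscle, above every library of P1 lung and P1 heart. Hoxa5 went the other way between muscle and lung, with 8.8, 8.28, 9.14, 9.73 and 6.63 CPM in P6 muscle, a log2 difference of -3.61 ± 0.17 from P1 lung and 1.499 ± 0.18 from P1 heart. Hoxd9 was at 18.2, 17.6, 16.2, 17.9 and 15.6 CPM in P6 muscle, above lung, and lung in turn was above heart.

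Meis1 and Meis2 had their highest group means in lung and their lowest in muscle in both fractions. Meis1 was at 54.6, 70.1, 59.8, 62 and 68.3 CPM in P1 lung TdTomato- libraries and 17.6, 14.7, 14.5 and 13.9 CPM in P1 heart, with no overlap and a log2 difference of 2.06 ± 0.27 (adjusted p = 1.58e-06, edgeR quasi-likelihood test). At 6W it was at 2.47, 0.553, 0.635 and 2.53 CPM in muscle and 11.4, 14, 13.3, 11.4 and 17.2 CPM in heart, again with no overlap, and fell by 3.09 ± 0.30 on the log2 scale (adjusted p = 1.39e-07, edgeR quasi-likelihood test). Muscle pairs 3 and 4 were the lowest libraries of all for Meis1 in this fraction. Meis2, which acts in heart outflow, limb and nerve development, was at 67.1, 54.5, 52.5, 47.1 and 49.8 CPM in lung and 9.27, 12.2, 15.3 and 18.12 CPM in P1 heart. At 6W it was at 0.629, 0.675, 0.342 and 2.16 CPM in muscle and 4.45, 2.72, 5.38, 3.83 and 3.05 CPM in heart, and fell by 2.03 ± 0.38 on the log2 scale (adjusted p = 0.000389, edgeR quasi-likelihood test). The summed level of the 3 Meis genes was 2.11 ± 0.648 RPKM in 6W muscle, 1.86 ± 0.274 in P6 muscle, 29.7 ± 1.55 in P1 lung, 5.34 ± 0.691 in 6W heart and 8.08 ± 0.809 in P1 heart. Meis3 was low throughout TdTomato- cells, with means from 1.17 to 2.62 CPM, and did not pass the test between organs in this fraction.

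The Pbx genes were even across organs by comparison. Pbx2 and Pbx3 were present in all 10 groups, and the summed level of the 4 Pbx genes lay between 21.5 ± 1.40 RPKM in P1 lung and 12.9 ± 1.26 RPKM in 6W heart in TdTomato- cells. Between 6W muscle and 6W heart, the log2 difference was 0.11 ± 0.17 for Pbx2 and 0.44 ± 0.16 for Pbx3 (adjusted p = 0.054, edgeR quasi-likelihood test), and neither passed the test. Pbx3 was called lower in P6 muscle than in lung in TdTomato- cells, at -0.40 ± 0.15, a call that was lost when any of 6 single libraries was left out (lung pairs 5 to 8 and muscle pairs 3 and 4). Pbx4 stayed below 1 CPM on average in every group.

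**Figure D3:**
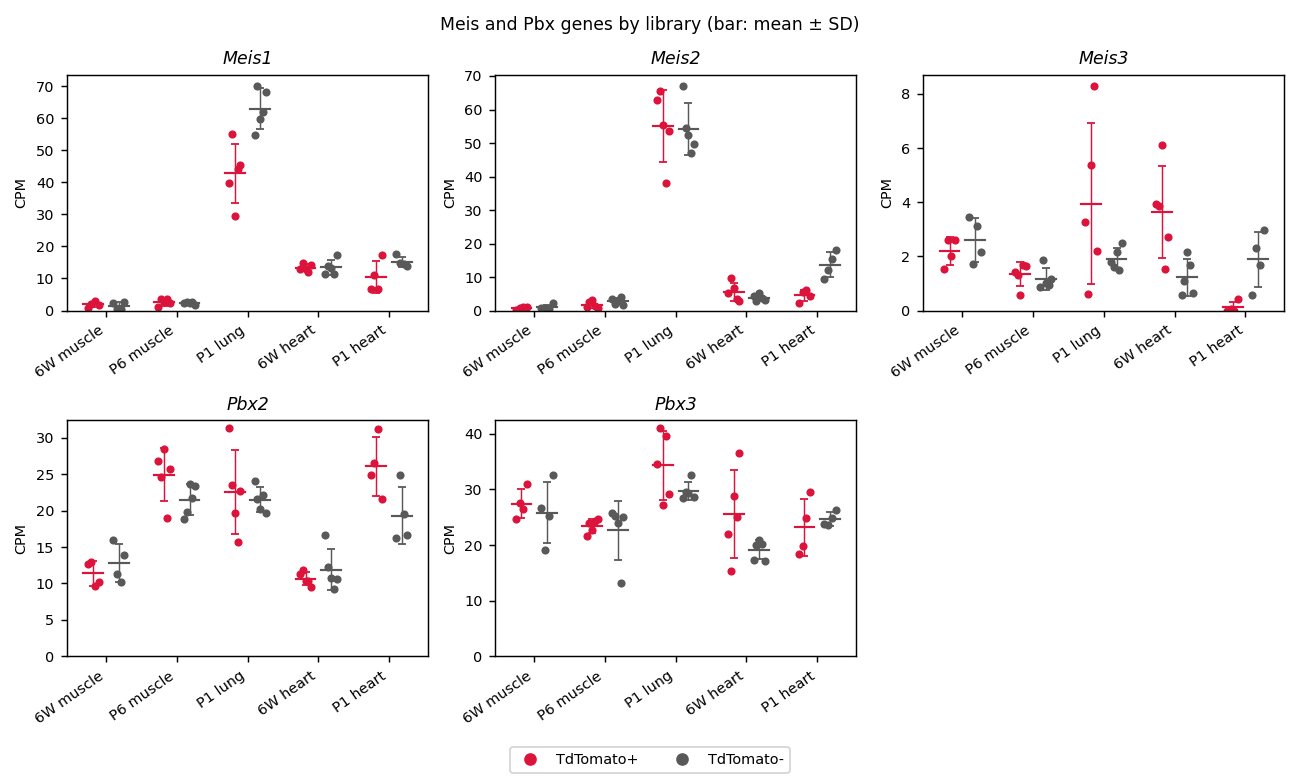
CPM of the Meis genes and of Pbx2 and Pbx3 in every library, by group, with TdTomato+ left of TdTomato- in each organ and age and bars for the mean ± SD. Meis1 and Meis2 step down from lung through heart to muscle, and Pbx2 and Pbx3 vary far less.

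With age, genes of the middle of the clusters were called higher in muscle, and no gene of the posterior end was called. Between 6W and P6 muscle, 10 of 29 members were called in TdTomato- cells, 8 higher and 2 lower at 6W (42.5% of all genes called), and 9 of 30 in TdTomato+ cells, 6 higher and 3 lower (34%), shares of members below those of all genes. Hoxa5, Hoxa6, Hoxa7, Hoxb2, Hoxb5 and Hoxb7 rose in both fractions and Hoxb6 in TdTomato- cells. None of the genes of paralogs 9 and 10 was called in either fraction, with 6 tested in each. Their log2 differences in TdTomato- cells were between -1.02 ± 0.89 for Hoxd10 and 1.74 ± 0.82 for Hoxc10. Their median was 0.72 in TdTomato- cells and 1.13 in TdTomato+ cells, against 1.42 and 1.44 for paralogs 5 to 8. The lack of calls therefore does not show that the posterior genes stayed level. Hoxb6 was at 11.05, 8.78, 8.75 and 10.3 CPM in 6W muscle TdTomato- libraries and 2.15, 2.18, 2.14, 2.02 and 2.07 CPM in P6 muscle, so that both groups were tight and far apart (log2 difference 2.20 ± 0.60, adjusted p = 0.00458, edgeR quasi-likelihood test). Hoxb7 averaged 52.8 CPM at 6W and 16.6 CPM at P6, and Hoxa7 averaged 46.2 CPM at 6W and 20.05 CPM at P6. Hoxd8, the strongest Hox gene of P6 muscle, did not pass the test, with a log2 difference of -0.01 ± 0.31. Pbx2 fell in both fractions, to 12.8 CPM at 6W against 21.5 CPM at P6 in TdTomato- cells, and Meis2 fell to 0.952 CPM against 2.8 CPM. All 6W muscle libraries were sequenced in the second run and all P6 muscle libraries in the first, so run and age cannot be told apart. In TdTomato- libraries, the fibroblast markers summed to 695 to 1772 CPM at P6 and 83.6 to 316 CPM at 6W. The skeletal muscle and satellite cell markers summed to 486 to 1059 CPM at P6 and 103 to 289 CPM at 6W. The part of such cells in these age differences was not tested.

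In heart, the age comparison called 11 of 29 members in TdTomato- cells, 6 higher and 5 lower at 6W (49.3% of all genes called), and 9 of 30 in TdTomato+ cells, 4 higher and 5 lower (43%), again shares below those of all genes. Hoxb5 had the smallest p in TdTomato- cells, at 6.86, 4.26, 6.13, 4.47 and 4.01 CPM in 6W heart and 1.91, 2.23, 1.79 and 1.72 CPM in P1 heart, with no overlap (log2 difference 1.43 ± 0.21, adjusted p = 4.93e-06, edgeR quasi-likelihood test). Hoxa5, Hoxb2 and Hoxb6 rose with it without overlap, although Hoxb6 averaged only 0.466 CPM at 6W. In TdTomato- cells, Meis2 fell to a mean of 3.89 CPM at 6W, against 13.7 CPM at P1, and Pbx2 fell to 11.9 CPM against 19.3 CPM. In TdTomato+ cells Pbx2 also fell, while Meis2 did not pass the test. Meis2 was there at 2.39, 5.65, 6.08 and 4.21 CPM at P1 and 5.36, 9.74, 6.59, 3.4 and 2.77 CPM at 6W. Meis3 was at 0 to 0.413 CPM in TdTomato+ cells at P1 and 1.53 to 6.1 CPM at 6W, and was called higher. Of 28 members tested in both fractions, 3 were called the same way in both. Of the TdTomato- calls, that of Hoxa4 was lost without P1 heart pair 4, P1 heart pair 5 or 6W heart pair 4. That of Hoxa7 was lost without any of 4 libraries (P1 heart pairs 3 and 4, 6W heart pairs 1 and 5). Meis1 did not pass the test between ages in either fraction, with a log2 difference of -0.17 ± 0.25 in TdTomato- cells. In TdTomato- libraries, the fibroblast markers summed to 602 to 974 CPM at P1 and 114 to 264 CPM at 6W. The endocardium markers summed to 542 to 922 CPM at P1 and 159 to 331 CPM at 6W. The part of such cells in these age differences was not tested.

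The TdTomato+ and TdTomato- cells of 1 tissue differed in few members. In P1 heart, 6 of 32 members were called, 2 higher and 4 lower in TdTomato+ cells (14.7% of 15557 genes). In P1 lung, 2 were called, both higher (9.78%). None was called in P6 muscle (0.977%), 6W heart (0.874%) or 6W muscle (5.23%), where 2, 7 and 0 members had an unadjusted p below 0.05 in the edgeR quasi-likelihood test and DESeq2 called 0, 1 and 0. In the authors' deposited table, 5 of the 32 members were below a false discovery rate of 0.05 in P1 heart, 2 in P1 lung and 0 in the other 3 comparisons.

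In P1 heart, Meis3 had the smallest p. It was at 0, 0.0428, 0 and 0.413 CPM in TdTomato+ libraries of pairs 2 to 5 and 0.584, 2.31, 1.7 and 2.97 CPM in the TdTomato- libraries, lower in TdTomato+ in 4 of 4 pairs (log2 difference -4.72 ± 0.81, adjusted p = 0.000455, edgeR quasi-likelihood test with the matched pair as a block). Hoxa5 was at 5.88, 6.46, 4.67 and 3.92 CPM in TdTomato+ libraries and 3.08, 3.17, 3.53 and 2.3 CPM in TdTomato- libraries, higher in all 4 pairs and without overlap (0.77 ± 0.16, adjusted p = 0.0021, edgeR quasi-likelihood test). Meis2 was at 2.39, 5.65, 6.08 and 4.21 CPM in TdTomato+ libraries and 9.27, 12.2, 15.3 and 18.12 CPM in TdTomato- libraries, also without overlap (-1.63 ± 0.34, adjusted p = 0.00239, edgeR quasi-likelihood test). Hoxa4 rose by 1.04 ± 0.34, while Hoxd9 and Hoxd10 fell at group means under 1 CPM, with Hoxd9 at 1.64 CPM in the TdTomato- library of pair 5. These last 3 calls rested on single libraries: Hoxa4 was lost without any 1 of the 4 pairs, Hoxd9 without pair 2 or 4, and Hoxd10 without pair 2, 3 or 4. Fitted without the other organs, P1 heart gave 1 call, that of Meis2, and Meis3 was no longer called (log2 difference -4.90, adjusted p = 0.0613, edgeR quasi-likelihood test). RNA integrity scores in pairs 2 to 5 were 7.5, 7.1, 3.6 and 8.5 in TdTomato+ libraries and 9.2, 8, 8.4 and 8.5 in TdTomato- libraries, and 13048 to 14157 genes had a count in TdTomato+ libraries, against 14094 to 14405 in TdTomato- libraries. Without pair 4, which holds the lowest score, the Meis3 difference was -4.17 (adjusted p = 0.00457, edgeR quasi-likelihood test). With pair 1 included, Hoxa5 was no longer called (adjusted p = 0.913, edgeR quasi-likelihood test). The fibroblast markers summed to 44.9 to 400 CPM in TdTomato+ libraries and 602 to 974 CPM in TdTomato- libraries, with 9 of 12 at 1 CPM or more in both, and the 6 endocardium markers to 154 to 254 CPM and 542 to 922 CPM, with 4 and 6 of the 6 at 1 CPM or more. The part of such cells in the Meis and Hox differences was not tested.

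In P1 lung, Hoxd8 was at 23.06, 12.3, 21.8, 24.3 and 25.3 CPM in TdTomato+ libraries of pairs 1, 5, 6, 7 and 8 and 13.8, 6.19, 3.24, 5.16 and 7.09 CPM in the TdTomato- libraries. It was higher in TdTomato+ in 5 of 5 pairs although the groups overlapped through pairs 1 and 5 (log2 difference 1.69 ± 0.27, adjusted p = 0.000115, edgeR quasi-likelihood test). The epithelium marker sums of pairs 6, 7 and 8 were 24652 to 64003 CPM in TdTomato+ libraries. In pairs 1 and 5 they were 1449 and 2365 CPM in TdTomato+ and 2339 and 1919 CPM in TdTomato- libraries. The part of such cells in the Hoxd8 difference was not tested. Without pairs 6, 7 and 8, no member was called in lung (Hoxd8 log2 difference 0.86, adjusted p = 0.312, edgeR quasi-likelihood test), and with P1 heart pair 1 included in the shared fit none was called either.

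**Figure D4:**
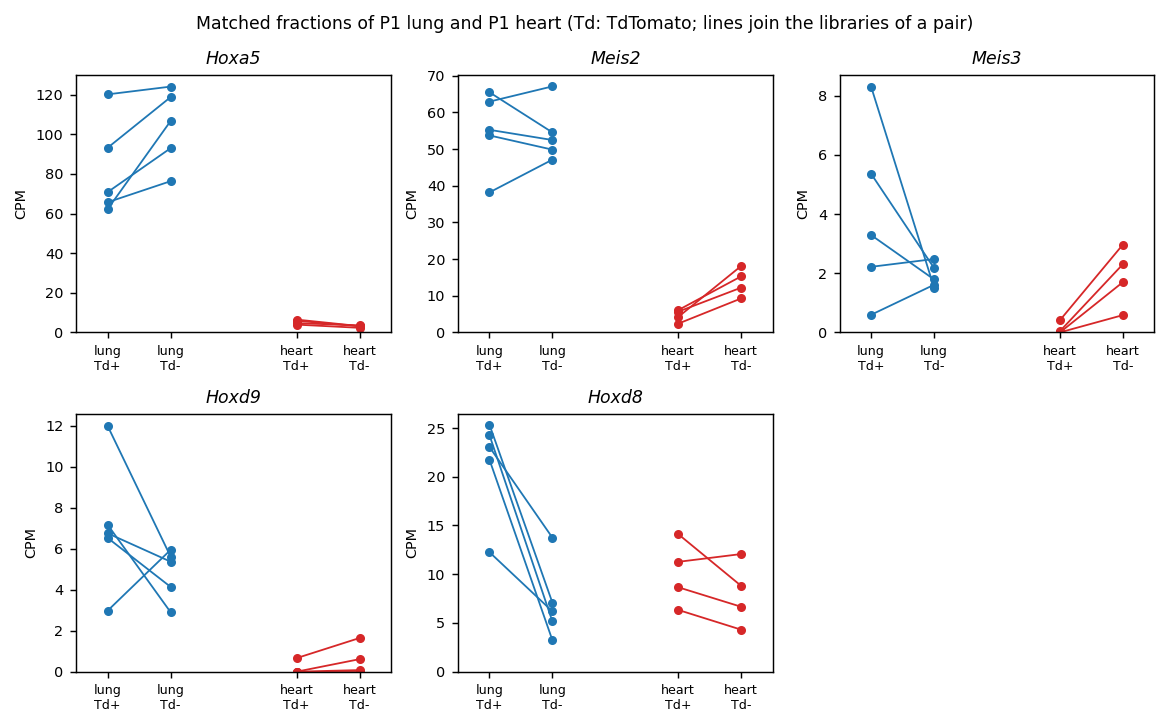
CPM of Hoxa5, Meis2, Meis3, Hoxd9 and Hoxd8 in P1 lung and P1 heart, with the libraries of each matched pair joined by a line and TdTomato+ on the left. Meis3 is lower in TdTomato+ in all 4 P1 heart pairs, and Hoxd8 is higher in all 5 P1 lung pairs.

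Whether the organ difference itself differed between the fractions was tested as an interaction. For P1 lung against P1 heart, 6 of 32 members were called, 5 with a larger lung-over-heart difference in TdTomato+ cells and 1 with a smaller one (11.4% of 15557 genes). The values were 5.37 ± 1.00 for Meis3, 1.64 ± 0.44 for Meis2, 5.78 ± 1.81 for Hoxa9, 2.64 ± 0.68 for Hoxd9, 1.33 ± 0.39 for Hoxd8 and -1.13 ± 0.20 for Hoxa5 on the log2 scale. For Hoxa5 this means that its lung-over-heart difference was 4.00 ± 0.24 in TdTomato+ cells and 5.11 ± 0.20 in TdTomato- cells. Without lung pairs 6, 7 and 8, 1 of the 6 calls was made, with P1 heart pair 1 included 2, and without the matched pair as a block 3. For 6W muscle against 6W heart no member was called (2.7% of genes), and 3 had an unadjusted p below 0.05 in the edgeR quasi-likelihood test.

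Lists of related genes were read in the TdTomato- organ comparisons for context. Of the other TALE homeobox genes, 5 of 9 tested were higher and 0 lower in P1 lung than in P1 heart, and 1 was higher and 2 lower in 6W muscle than in 6W heart. Irx2 averaged 4.67 ± 1.65 CPM in lung and 0.0293 ± 0.0586 CPM in P1 heart, and Irx5, an Iroquois factor active in the adult heart, averaged 0.151 ± 0.133 CPM in 6W muscle and 3.03 ± 1.81 CPM in 6W heart. Of the other transcripts of the Hox clusters and their flanks, 5 of 8 were higher and 2 lower in lung, and 4 of 8 were higher and 0 lower in 6W muscle. Among them Hoxd3os1, antisense at the Hoxd cluster, averaged 3.38 ± 0.883 CPM in 6W muscle and 0.207 ± 0.131 CPM in 6W heart, and Halr1, a long RNA beside the Hoxa cluster, averaged 0.0902 ± 0.0950 CPM in lung and 2.52 ± 1.14 CPM in P1 heart.

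Retinoic acid, which sets Hox expression in the embryo, and the Polycomb and trithorax proteins, which keep Hox genes silent or active, were covered by a list each. Of 16 retinoic acid pathway genes, 7 were higher and 2 lower in P1 lung, and 1 was higher and 1 lower in 6W muscle. The retinoic acid receptor gene Rara averaged 111.3 ± 13.6 CPM in P1 lung and 62.8 ± 3.71 CPM in P1 heart. Of 22 Polycomb and trithorax genes, 2 were higher and 6 lower in lung, and 1 was higher and 3 lower in 6W muscle. Cbx2, a Polycomb subunit whose loss shifts Hox patterns in mice, averaged 8.58 ± 1.15 CPM in 6W muscle and 23.3 ± 2.82 CPM in 6W heart (log2 difference -1.44 ± 0.17, adjusted p = 1.98e-06, edgeR quasi-likelihood test). These counts stand beside calls among all genes of 36.9% between lung and P1 heart and 21.9% between 6W muscle and 6W heart. None of the 6 caudal and ParaHox genes of the list was in the table.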

How the data were processed

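RNA of sorted endothelial cells was sequenced in 48 libraries, and 46 were used. Whole-number counts for each gene, with gene lengths, were deposited by the authors. Per the submitters' processing notes, the tools were STAR and featureCounts on mm10, with no versions given. The library kit differs between labels and run sheets, and no source used here gives the strand setting. For each comparison of TdTomato+ with TdTomato-, the authors deposited log2 fold changes and p-values adjusted as false discovery rates, from edgeR per the same notes. The run sheets give the RNA integrity score, per the file headers, and list 2 samples that were not used.

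The members, gene lists, tests and alternatives were chosen with earlier results of these data known. Library sizes were scaled by TMM in edgeR 4.0.16 (R 4.3.3), and genes were filtered with filterByExpr, which kept 14966 genes over the 23 TdTomato+ libraries, 14802 over the 23 TdTomato- libraries and 15557 over all 46. Organs and ages were compared within a fraction, with no block. Fractions were compared over all 46 libraries with the matched pair as a block. The labels call these libraries matched. Deviations of partners from their group means correlated at -0.01 to 0.63 (median 0.32, above 0.1 in 22 of 23 pairs, 9450 genes). Quasi-likelihood tests were adjusted by Benjamini-Hochberg over all genes of a fit and called below 0.05. The standard error (SE) is the log2 fold change over the square root of F. CPM and RPKM use the scaled library sizes. The procedure was tested on simulated data. Changes were simulated only for genes of higher counts, so posterior genes of few reads in heart were not covered. DESeq2 1.42.0 was an alternative.

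Tested were 29 members in TdTomato- cells (all but Hoxc6, Hoxc9 and Pbx4), 30 in TdTomato+ cells (all but Hoxc6 and Hoxc10) and 32 in the joint fit. A filter on low values keeps a gene that is high in 1 group, so counts among tested members are not counts among all members. Values of every library are given for the called members that changed most (up to 6 in each direction) in TdTomato- cells, at a mean of 1 CPM or more in 1 group, for P1 lung against P1 heart and for 6W muscle against 6W heart, and for up to 2 called members with the smallest p between fractions. Others shown by library (Hoxa7, Hoxb6, Hoxd8 and Meis2 among them) were chosen after their values were seen. Up to 2 called genes of each related list could be named. Single values of some genes, 2 members among them, are not reported here.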

Additional observations from a re-analysis of the deposited data

Results flagged for a closer look

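In 35 sets of a named gene and a group of 4 or 5 libraries, 6 held a library that stood apart from the others of its group. For normally distributed values the rule flags about 1 of 20 sets. That rate does not hold for low counts, where 1 read among libraries at 0 is always flagged and a set all at 0 never is. The 6 of 35 can therefore not be set against it. Hoxb8 was at 4.67 CPM in the TdTomato- library of 6W muscle pair 2, against 0.44 to 0.798 CPM in the other 3. Hoxb5 was at 17.8 CPM in the TdTomato- library of P1 lung pair 5, against 13.4 to 14.6 CPM in the others. Hoxd8 was at 12.3 CPM in the TdTomato+ library of P1 lung pair 5, against 21.8 to 25.3 CPM in the others. Meis3 was at 0.413 CPM in the TdTomato+ library of P1 heart pair 5, against 0 to 0.0428 CPM in the others. Hoxb9 was at 0.0464 CPM in the TdTomato- library of 6W heart pair 1, and Hoxa10 at 0.0599 CPM in that of 6W heart pair 6. Both values stand for 1 read among libraries at 0.

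The lung-over-heart difference at P1 differed between TdTomato+ and TdTomato- cells for 6 members by the interaction test. On the log2 scale the interaction was -1.13 for Hoxa5, 5.78 for Hoxa9, 1.33 for Hoxd8, 2.64 for Hoxd9, 1.64 for Meis2 and 5.37 for Meis3. Hoxa9 was read at under 1.1 CPM in every library of both groups, and its call was lost when any of 6 single pairs was left out (heart pairs 2, 3 and 4, lung pairs 1, 6 and 7). The Hoxd8 call was lost without heart pair 2 or 5 or lung pair 6, 7 or 8, and the Hoxd9 call without heart pair 4.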

How the results depend on the processing

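Of 111 recomputed counts of called members outside the settings that leave out 1 library or pair, 92 stayed within 1.5 times the reported count and 19 did not. The 111 recomputed values of named genes kept their direction in all cases and fell short of the threshold in 11. With replicate numbers as a replicate block, the counts were 13 for P6 muscle against P1 heart, 5 for P6 muscle against P1 lung and 1 for 6W against P1 heart in TdTomato+ cells, and 12 for 6W muscle against 6W heart, 10 for P6 muscle against P1 lung and 3 for 6W against P1 heart in TdTomato- cells. Of the calls between 6W muscle and 6W heart in TdTomato- cells, those of Hoxa2, Hoxa3, Hoxa4, Hoxa6, Hoxb2, Hoxb3, Hoxc10, Hoxd4 and Meis2 were lost with it. Same-numbered samples of different groups had correlations of -0.15 to 0.24, which overlap those of matched partners (-0.01 to 0.63). With only 1 to 4 such couples in a comparison, these values cannot show whether the numbers pair samples across groups. The labels do not say that they do. No paired analysis was possible for P1 lung against P1 heart because the groups share 1 number. Summing both fractions per pair gave 25 for P6 muscle against P1 lung in TdTomato+ cells. The 6W against P1 heart count in TdTomato+ cells was 4 with P1 heart pair 1 included, 5 without 6W heart pairs 5 and 6 and 3 in a fit of the 2 groups alone, which gave 7 in TdTomato- cells. Between fractions, P1 heart alone gave 1. P1 lung gave 6 with DESeq2 and 0 with P1 heart pair 1 included or without lung pairs 6, 7 and 8, and 6W heart gave 1 with DESeq2. The P1 interaction gave 3 with no replicate block, 2 with pair 1 included and 1 without lung pairs 6, 7 and 8. The cause of these shifts was not tested, beyond the fewer samples some of these fits hold.

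Leaving out 1 library or pair at a time, the counts ran as follows in TdTomato+ and then TdTomato- cells: P1 lung against P1 heart 10 to 15 and 12 to 14, 6W muscle against 6W heart 18 to 20 and 20 to 23, P6 muscle against P1 heart 18 to 21 and 20 to 23, P6 muscle against P1 lung 13 to 15 and 19 to 23, 6W against P1 heart 5 to 9 and 8 to 12, and 6W against P6 muscle 7 to 9 and 8 to 11. Between fractions they ran from 3 to 5 in P1 heart and 1 to 4 in P1 lung and stayed at 0 in the other 3, and the interactions ran from 4 to 6 at P1 and stayed at 0 at 6W. The organ comparisons rest on 4 or 5 libraries a group and on posterior genes of a few reads in heart.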
